A study of Mus musculus with 8 samples.

Results

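Mycn, Mga and Ccnd2, genes of growth control, were followed in a comparison of trimethylation of histone H3 at lysine 27 (H3K27me3) between control crypts and crypts that had lost both H3K27 demethylases. They were chosen by name: of 378 regions in the authors' deposited table of changed regions, 3 name one of these genes as overlapping or flanking, 1 region for each gene. The regions at Mycn and Ccnd2 were called up and the region at Mga was called down in the authors' deposited table. Listed regions made up 0.641% of the 58963 regions that its p-values and false discovery rates (FDR) imply were tested, 0.438% up and 0.204% down. The members were picked from among the listed regions, so nothing is read from this background. The samples were jejunal intestinal epithelial cells, described as crypt cells, from female mice, with 4 control samples of Control/WT genotype and 4 Kdm6a/Kdm6b knockout samples, both taken 7 days after ablation was induced. Kdm6a and Kdm6b encode the demethylases UTX and JMJD3. The sources used here do not give the driver of the recombinase, the inducing agent or whether each sample was 1 animal. The assay was chromatin immunoprecipitation and sequencing after digestion with micrococcal nuclease. Values of single samples are not in the table. Library depth is therefore unknown, and neither replicate spread nor a standard error can be given. The reference group is not named. Whether up means higher in the knockout or higher in the controls is therefore not known here. With no expression and no second mark in the table, the labelled cell type could not be checked against its markers.

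H3K27me3 is laid down by Polycomb repressive complex 2 and marks genes held silent, often over the CpG-rich start and the surrounding kilobases. MYC family proteins pair with MAX to bind E-boxes and drive growth, and cyclin D proteins pair with CDK4 or CDK6 to release E2F factors from the retinoblastoma protein. MGA also pairs with MAX, carries a T-box domain besides its helix-loop-helix domain, and is the scaffold of a variant Polycomb repressive complex 1. In crypts, MYC activity downstream of Wnt signals sustains the dividing progenitors.

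Start-site sequences lay inside the changed regions for Mycn, for Mga and for the noncoding gene 9330179D12Rik, which runs antisense to Ccnd2, and the 250 bases before each start are shown because the changed regions span them; the table does not place the counted windows within a region, so a change at these bases themselves is not shown. They are from RefSeq (GRCm38.p6) and read 5′ to 3′ on the gene's strand. The Mycn sequence is chr12:12941837-12942086 on the minus strand, the Mga sequence is chr2:119896978-119897227 on the plus strand, and the sequence before the first of 2 listed starts of 9330179D12Rik is chr6:127149139-127149388 on the plus strand. Ccnd2 has no entry in the promoter table. In the Mycn sequence capitals mark matches to an E2F motif, and in the other sequences they mark each CG dinucleotide.
Mycn: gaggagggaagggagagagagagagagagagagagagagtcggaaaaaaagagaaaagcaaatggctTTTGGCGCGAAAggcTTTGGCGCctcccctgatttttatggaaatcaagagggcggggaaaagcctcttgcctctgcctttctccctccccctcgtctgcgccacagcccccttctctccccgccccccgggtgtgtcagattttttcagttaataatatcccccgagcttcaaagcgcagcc
Mga: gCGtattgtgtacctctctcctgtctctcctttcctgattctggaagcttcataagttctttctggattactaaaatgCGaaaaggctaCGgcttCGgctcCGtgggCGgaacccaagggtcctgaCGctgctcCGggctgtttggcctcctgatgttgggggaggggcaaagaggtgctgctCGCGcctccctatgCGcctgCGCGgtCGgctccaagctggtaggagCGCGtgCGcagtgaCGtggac
9330179D12Rik: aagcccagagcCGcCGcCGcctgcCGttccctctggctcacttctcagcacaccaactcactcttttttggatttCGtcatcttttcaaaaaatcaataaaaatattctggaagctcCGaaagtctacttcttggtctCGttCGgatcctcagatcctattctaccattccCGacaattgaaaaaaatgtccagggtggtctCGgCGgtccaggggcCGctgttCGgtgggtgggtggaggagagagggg

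Mycn encodes N-MYC, a MYC family transcription factor. Its region ran over 27.5 kb at chromosome 12, 12936501 to 12964000 (mm10), in the authors' deposited table, which assigns it to the promoter and exons of Mycn and to no other gene. The RefSeq gene is only 5744 bp long, and the region held all of it but the last 408 bp at the 3′ end. Most of the region lay outside the gene: 22.2 kb, or 80.6% of its width, was upstream of the start site. In the authors' deposited table its representative window has 0.89 (1.86-fold) as the log2 fold change, with a p-value of 2.58e-05 and an FDR of 0.0124. For the best window the authors' deposited table gives 0.94, and Mycn was the only one of the 3 regions where best and representative windows differed.

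Ccnd2 encodes cyclin D2. Its region measured 22 kb, at chromosome 6, 127141501 to 127163500, in the authors' deposited table and was centred on the start site, with 11.3 kb upstream and 10.7 kb inside the gene. That inner part is 39.5% of the gene, which is 27027 bp long. The next annotated piece of Ccnd2 lay 2250 bp beyond the region's edge in the authors' deposited table, so the 3′ part of the gene was outside. The authors' deposited table gives 0.93 (1.90-fold) as the log2 change, a p-value of 1.57e-04 and an FDR of 0.0343. The same region is assigned to the promoter and exons of 9330179D12Rik, whose first listed start lies 2.80 kb inside Ccnd2 on the opposite strand. A histone mark has no strand, so the value belongs to both genes and cannot be told apart between them.

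Mga encodes the MAX-binding protein described above and was the only member with a down call. Its region covered 13.5 kb at chromosome 2, 119885501 to 119899000, in the authors' deposited table, with -1.25 (0.42-fold) as the log2 change, a p-value of 1.04e-06 and an FDR of 0.00118. Of its width, 11.7 kb (86.9%) was upstream of the RefSeq promoter entry's start and 1.77 kb downstream, 2.43% of the 72.9 kb gene body that follows. The RefSeq gene record itself begins 24.7 kb before that start, so the whole region lies within the record. The table's next piece of Mga was 3606 bp past the region in the authors' deposited table.

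**Figure D1:**
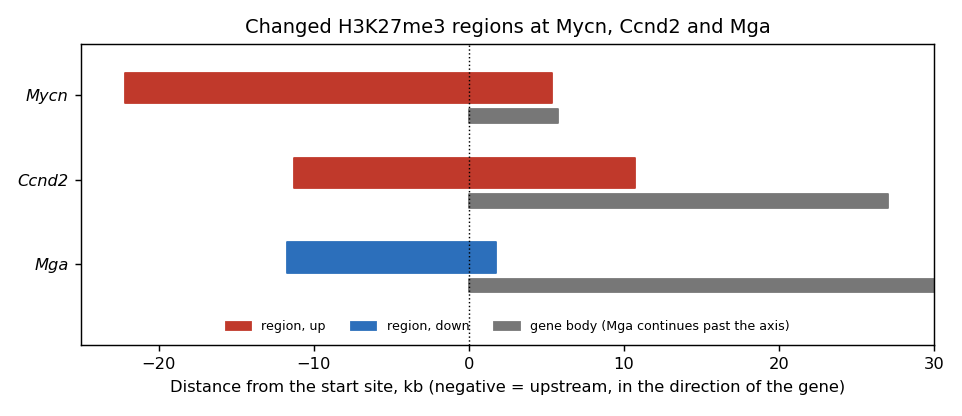
Horizontal axis, distance from the start site in kb along the gene's own direction; coloured bars, the changed regions at Mycn and Ccnd2 (up, red) and Mga (down, blue); grey bars, the RefSeq gene bodies. All 3 regions cross the start site, and 80.6% of the Mycn region, 51.4% of the Ccnd2 region and 86.9% of the Mga region lie upstream of it. The start is that of the RefSeq promoter entry for Mycn and Mga and the gene record's 5′ end for Ccnd2; the Mga record begins 24.7 kb further upstream, left of the plotted gene body.

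The 3 regions differed in how they sat on their genes, with starts taken from RefSeq promoter entries, or from the gene record for Ccnd2. By its gene record, which begins 24.7 kb earlier, the Mga region would cross no start and have no upstream part. Among the other up regions that hold exactly 1 RefSeq promoter start of a gene they name, 57 in number for Mycn, a median of 49.8% of the width was upstream (interquartile range 28.5 to 63.9%), and 50 had a smaller upstream part than Mycn. Ccnd2 was near the middle, with 32 of 58 such regions below it. For Mga, 23 of 26 down regions of this kind had a smaller upstream part (median 67.1%, interquartile range 41.1 to 80.8%). These positions describe single regions and were not tested.

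Windows counted as changed filled very different parts of the regions. Each region is built from overlapping windows, and the table counts how many of them went up or down by a rule that the sources used here do not give. At Mycn 26 of 148 windows (17.6%) were counted as up and 0 as down in the authors' deposited table, which left 122 in neither count. At Ccnd2 it was 25 of 117 (21.4%) up and 0 down in the authors' deposited table, with 92 in neither. At Mga 49 of 68 (72.1%) were down and 0 up in the authors' deposited table, with 19 in neither. No member thus held counted windows of both directions. The listed regions nearest to each member on its chromosome also had 0 windows counted against their direction, so this is not particular to the members. The share over all 378 regions is not given here. The narrowest of the 3 members had the most counted windows.

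Set against all other regions of their direction, Mycn and Ccnd2 had a low share of counted windows. Mycn was wide, while Ccnd2 was moderately above the median up width of 17.25 kb. Of the other 257 up regions, 203 were narrower than Mycn and 13 had a lower share of counted windows. For Ccnd2, 156 were narrower, 101 were wider and 24 had a lower share. Among the 117 other up regions within 1.5 times the width of Mycn the median share was 63.2% (range 3.47 to 100%), and 12 were lower. Among the 144 matched in the same way to Ccnd2 the median was 61.1%, and 21 were lower. For Mga the tally depended on the regions it was set against. Of all other 119 down regions, 81 were narrower and 67 had a lower share, 56.3% of them. Of the 28 other down regions of like width the median share was 32.0% (range 9.09 to 82.8%), and 24 (85.7%) were lower than Mga.

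**Figure D2:**
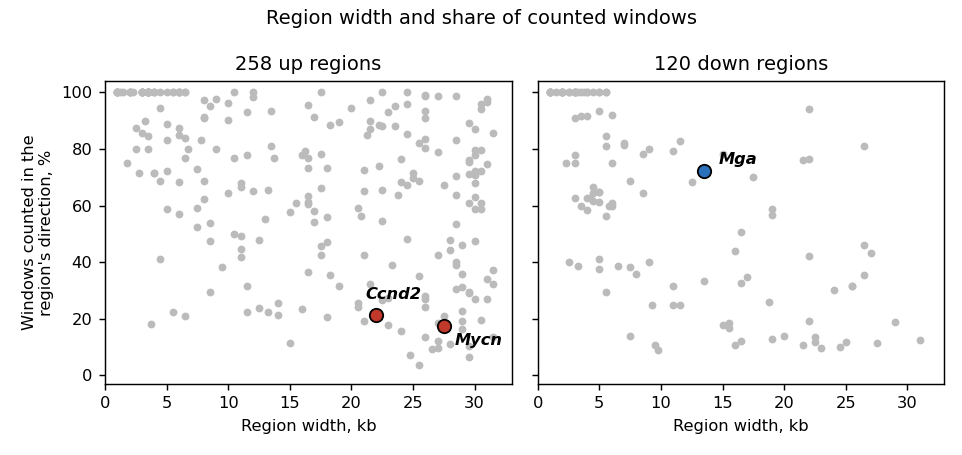
Each point is 1 region of the authors' deposited table, with its width in kb on the horizontal axis and the percent of its windows counted in its own direction on the vertical axis, up regions on the left and down regions on the right. Mycn (27.5 kb, 17.6%) and Ccnd2 (22 kb, 21.4%) lie low among up regions of like width, and Mga (13.5 kb, 72.1%) lies above most down regions of like width.

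The regions nearest to the members in these 2 measures put the values in context. A region close to Mycn in share, of 3.75 kb on chromosome 15 with no gene, had 2 of 11 windows up and 1.10 as log2 change in the authors' deposited table. A region near Dhrs3, a retinol metabolism gene, had the same width as Mycn, 27.5 kb, and was also close in share to Ccnd2, with 29 of 138 windows up and 0.93 as log2 change in the authors' deposited table. One other region of 27.5 kb, on chromosome 11 with no gene, had 96 of 143 windows up in the authors' deposited table at a nearly equal log2 fold change of 0.90. Of these 2 regions as wide as Mycn, that at Dhrs3 was thus similar to it in window count and that on chromosome 11 was not.

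At Edn1, the endothelin 1 gene, 14 of 66 windows were up in the authors' deposited table, the share closest to Ccnd2. The 2 regions closest to Ccnd2 in width were both 22.25 kb long and both assigned to Gse1 and to an intron of Galnt2. They had 100 of 113 and 91 of 123 windows up in the authors' deposited table. For Mga the region of equal width was at Esyt1, an extended synaptotagmin gene, with 23 of 69 windows down and -1.08 as log2 change in the authors' deposited table. The next in width, at Cdkl2, a gene of a CDK-like kinase, had 43 of 63 down and -1.05 as log2 change in the authors' deposited table. The down regions closest to Mga in share were one of 17.5 kb with no gene on chromosome 16, at 61 of 87 windows, and, tied with narrower regions at 75%, one of 6 kb near the metalloprotease gene Adamts18, at 21 of 28, in the authors' deposited table.

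The size of change also ranked the members differently. Of the other 119 down regions, 115 changed less than Mga and 4 changed more, by absolute log2 fold change from the authors' deposited table, and by FDR it was number 8 of the 120. Mycn and Ccnd2 were within the bulk of the up regions, with a larger change in 192 and 154 of the other 257, and their FDR ranks were 105 and 200 of 258 in the authors' deposited table. The highest FDR listed in the authors' deposited table is 0.0498, and Ccnd2 at 0.0343 is nearer to that limit than Mycn or Mga. These ranks by size probably mix windows of 2 widths. The representative window of Mga was from a set with 1000 bp single-window regions, those of Mycn and Ccnd2 from a set with 2000 bp.

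**Figure D3:**
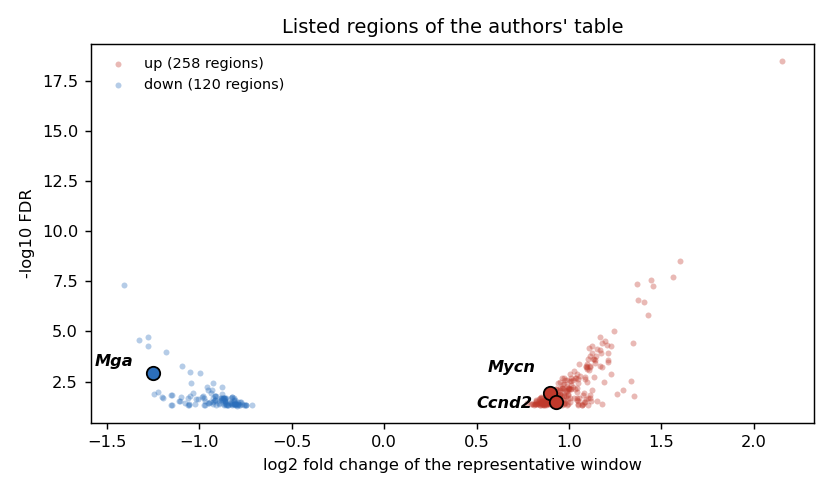
Log2 fold change of each region's representative window against -log10 of its FDR, both from the authors' deposited table; each point is 1 of 258 up (red) or 120 down (blue) regions. Mga, at -1.25, stands among the most negative changes, while Mycn (0.89) and Ccnd2 (0.93) lie within the dense part of the up regions. Representative windows of unlike width are probably drawn together.

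The surroundings of the 3 genes differed as well. On the 3′ side of Mycn, 138 and 142 kb from its region, lay 2 neighbouring up regions with no gene, at 12795001 to 12798500 and 12782501 to 12794500. They had 13 of 13 and 63 of 64 windows up and 0.97 and 0.89 as log2 change in the authors' deposited table. Counted windows thus filled them far more than the Mycn region itself. At 3.5 and 12 kb they were also narrower than it, and this comparison is not matched for width. No other protein-coding RefSeq gene lay within 200 kb of the Mycn region, where the annotation holds noncoding genes and pseudogenes. Upstream of Ccnd2, 185 kb from its region, an up region of 16.5 kb with no gene had 52 of 85 windows up and 1.05 as log2 change (FDR 0.0491) in the authors' deposited table. A further up region 524 kb away, at an exon of Prmt8, an arginine methyltransferase gene, had 27 of 165 windows up and 0.93 as log2 change in the authors' deposited table. Tigar, Fgf23, Fgf6 and D6Wsu163e, the 4 other protein-coding genes within 200 kb of the Ccnd2 region, were named by no listed region.

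Mga stood alone. The nearest listed region was 7.43 Mb away, at Emc7, and was also down (10 of 82 windows, log2 change -0.97 in the authors' deposited table). None of the 10 other protein-coding genes within 200 kb, among them the receptor kinase genes Tyro3 and Ltk and the JmjC domain gene Jmjd7, was named in the table. Across all 378 regions the median distance to the nearest listed region was 597 kb. A greater distance than that of Mga was found for 47 regions, and a smaller one than those of Mycn and Ccnd2 for 138 and 147.

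**Figure D4:**
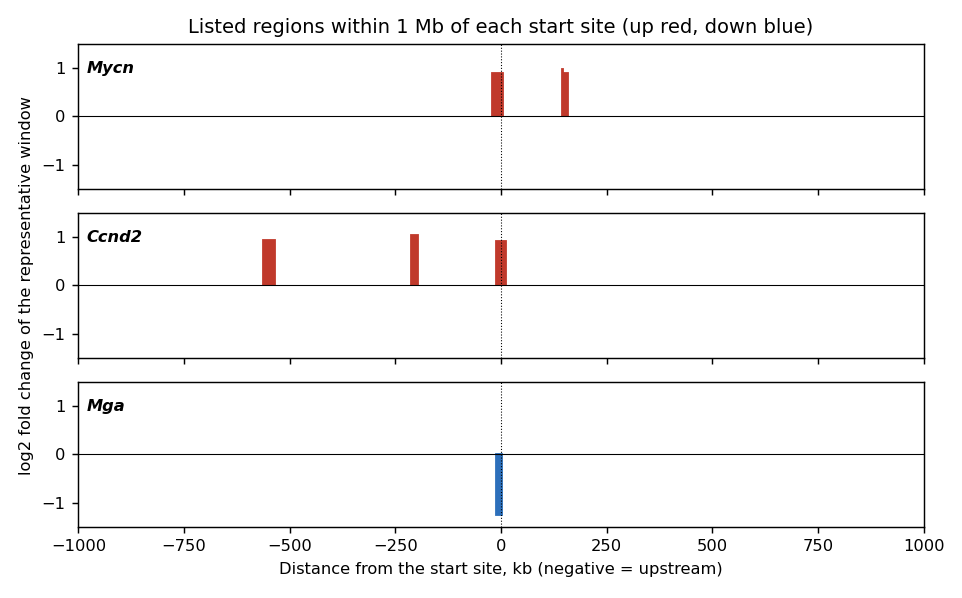
Listed regions within 1 Mb of each start site, with the distance from the start along the gene's direction in kb on the horizontal axis and the representative window's log2 fold change from the authors' deposited table on the vertical axis (up red, down blue). Mycn has 2 further up regions on its 3′ side and Ccnd2 has 2 on its upstream side, while Mga has no other listed region in this span.

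The start-site sequences of the members differed in CpG content and in motifs. Over 300 bases, from 250 before to 50 after the start, Mga held 24 CG dinucleotides, more than 80.0% of 32851 RefSeq promoters, with a ratio of observed to expected CG of 0.89. Mycn held 14, more than 63.7% of promoters, with a ratio of 0.58. The first and the second start of 9330179D12Rik, inside the Ccnd2 region, held 20 and 15. For comparison, the median was 8 over 147 promoters whose start lay in an up region, 21 over 60 in a down region and 7 over all promoters. These medians are descriptions of the regions listed, and promoters that share a region or gene are not independent.

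Motifs were searched on both strands. For E2F factors, which the cyclin D pathway releases, the letters searched were TTTCGCGC and TTTGGCGC, and Mycn held 3 matches, at 183, 179 and 168 bases before the start. The first and second overlap, as the opposite-strand match GCGCGAAA shares letters with TTTGGCGC in the run printed above, so they are 2 separate stretches. Of all promoters, 0.813% held a match of this motif. Mga and both 9330179D12Rik starts held none. The E-box CACGTG, bound by MYC and MAX dimers, was in none of these 4 windows, against 7.15% of all promoters. The T-box letters TCACACCT and its reverse complement AGGTGTGA were in none either, against 1.28% of promoters. A match is a run of letters and not a bound site, and no match speaks only of this window.

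Other genes of these pathways were named by no listed region, as holds for most genes. Of 21887 protein-coding RefSeq genes, 286 (1.31%) were named. The median distance to the nearest listed region was 2.05 Mb over all list genes and 2.36 Mb over all protein-coding genes. Of 13 genes of the MYC network (the MYC, MXD, MNT, MGA and MLX families and MAX), Mycn was at an up region, Mga at a down region and 11 at none. Myc itself lay 11.9 Mb from the nearest listed region. Max, the shared partner, was 388 kb from an up region at Plekhg3, and Mxd3, which encodes a MAX-binding antagonist of MYC, was 62.1 kb from an up region at F12, Pfn3 and Slc34a1. In the list of 16 genes of the variant Polycomb complex that MGA organises, Mga alone was at a listed region. Rybp, a subunit of variant complexes, was 56.1 kb from an up region with no gene, and Pcgf6, the subunit that defines the complex, was 234 kb from an up region at Sh3pxd2a.

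Of 10 cell cycle cyclins only Ccnd2 was at a listed region. Ccnd1 and Ccnd3, which encode the other D cyclins, were 3.09 and 1.53 Mb from the nearest. None of 4 cyclin-dependent kinases, 7 of their inhibitors, 11 RB and E2F genes and 3 H3K27 demethylase genes was named. Among the demethylase genes, Uty is on chromosome Y, which female mice lack, so it could not be listed. It is still counted in the totals below. Closest among these was Cdkn1a, the p21 inhibitor gene, 25.8 kb from an up region at Cpne5 and Rab44 with 1.10 as log2 change (FDR 4.03e-04) in the authors' deposited table. Cdk2 lay 162 kb from the down region at Esyt1. Counting each gene once, 3 of 61 (4.92%) were at a listed region, the 3 members themselves, against 286 of 21887 protein-coding RefSeq genes (1.31%). Members were chosen for being listed, so this share is not evidence about the lists. Within 100 kb of a listed region but not named by one were 3 of the 61 (4.92%), namely Cdkn1a, Rybp and Mxd3. The share of all protein-coding genes was 3.62%, so such distances are not particular to these lists. Within 1 Mb but not named were 17 of the 61 (27.9%), against 26.8% of all protein-coding genes.

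**Figure D5:**
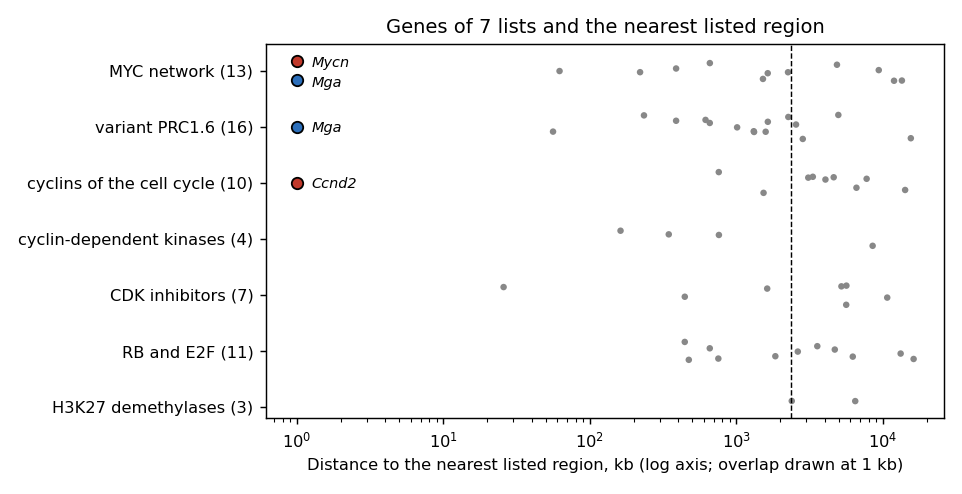
Distance in kb, on a log axis, from each gene of 7 lists to the nearest listed region on its chromosome, with overlaps drawn at 1 kb. List sizes are in parentheses. Uty is on chromosome Y, which female mice lack and which has no listed region, and is not drawn. Mycn, Mga (drawn in both lists that hold it) and Ccnd2 are the only genes at a region, and the dashed line is the median of all protein-coding genes, 2.36 Mb.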

How the data were processed

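H3K27me3 was profiled in 4 control and 4 knockout samples, grouped and numbered from the sample titles. Build mm10, Bowtie 0.12.7 and SICER 1.0.3, with SAMtools 1.11, Picard 1.141, FastQC 0.10.1 and an edgeR of no stated version, stand in the submitters' processing notes, which as used here give no order or settings. The authors deposited a table of region tests with csaw's headers, with 0 columns of per-sample values, so no test could be refitted. Per the file headers it gives each region's p-value and FDR, the log2 fold change of its representative and best windows, and counts of windows by direction, all used as given.

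Annotation fields hold unquoted commas, so rows had 17 to 21 cells. A gene entry with a letter code counted as overlapping (P promoter, E exon, I intron) and one with a distance as flanking. The index of representative windows passes over the genome 2 times, so 2 sets of windows were probably combined: for Mga it fell in the second set, whose single-window regions were 1000 bp wide, and for Mycn and Ccnd2 in the first, with 2000 bp. The number of tested regions was recovered by inverting the Benjamini-Hochberg adjustment, which was tested on simulated data. Start sites, gene extents and promoter sequences came from RefSeq GRCm38.p6, the same build. The start of Ccnd2 is the 5′ end of its gene record. Python 3.11.15 and pandas 2.3.3 were used.

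The text names the 3 member regions, the genes in them, the 2 regions of the same direction closest in width and in window share, listed members of the gene lists, and, chosen after their values were seen, neighbouring regions and the list genes nearest to a region. One region that this rule picks is not reported here. Members, lists and motifs were chosen with earlier results of these data known. Comparisons among regions are descriptions without a test.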

Additional observations from a re-analysis of the deposited data

How the results depend on the processing

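No paired analysis was possible because the deposited table holds no values per sample; for the same reason no replicate could be left out. By the best window the log2 fold changes in the authors' deposited table were 0.94 at Mycn, 0.93 at Ccnd2 and -1.25 at Mga, each in the same direction. At FDR 0.01 only 1 of the 3 regions, Mga, would be listed, and at a minimum of 1 for the absolute log2 change also only 1, again Mga. The list genes at a listed region likewise went from 3 to 1 at FDR 0.01. Reading the overlap field alone, or taking RefSeq genes within 5 kb, found all 3 regions. With only windows counted in either direction as the denominator, the share in the region's direction was 100% at all 3, so the shares of 17.6, 21.4 and 72.1% reflect windows in neither count. Among regions of like width, 85.7% of down regions had a lower share than Mga, against 56.3% of all other down regions. The depth of the libraries is unknown, and regions that missed the FDR limit are not listed, so a gene at no listed region need not be unchanged.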
